A study of Mus musculus with 12 samples.

Results

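The 40 imprinted genes examined here were drawn from the known mouse imprinted clusters, and a measured methylation window was obtained for 36 of them, out of 19536 genes with such a window in the whole data set. DNA methylation was measured by reduced representation bisulfite sequencing (RRBS), which reads CpG-rich restriction fragments after a treatment that converts unmethylated cytosines. A window is the mean percent methylation of all cytosines listed in each of the 12 libraries within 5000 bp of any RefSeq start of the gene, with at least 3 cytosines. The 36 windows held 860 distinct cytosines out of 606488 autosomal cytosines shared by all libraries. The libraries came from a pair of SV40-immortalised mouse embryonic fibroblast (iMEF) lines, sampled before doxycycline (day 0) and after 5, 9, 12, 16 and 20 days of it. The experimental line was R26M2rtTA/+;TetOcre;Sdhcfl/fl and the control line R26M2rtTA/+;TetOcre;Sdhcfl/wt, so both carried the rtTA activator and the doxycycline-driven Cre, both received the drug, and they differed in how many floxed alleles of Sdhc, a succinate dehydrogenase subunit, could be removed. Each genotype was a single line with 1 library per day. Comparisons took 6 libraries of the control line and 5 of the experimental line, without its day 0, so SDs and p-values measure the spread between days of a line and not between independent lines.

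Imprinted genes are expressed from only the maternal or only the paternal copy. The choice is kept by differentially methylated regions (DMRs), where the copy from a given parent is methylated and the other copy is not. Germline DMRs receive this methylation in the egg or the sperm, and the zinc finger proteins ZFP57 and ZFP445, with TRIM28 and the maintenance methyltransferase DNMT1, hold it in somatic cells. Secondary DMRs are laid down after fertilisation under the control of a germline DMR nearby. A DMR that still carries its imprint is read near the middle of the percent scale, because methylated and unmethylated copies are pooled. For that reason the range from 30 to 70 percent was taken as the sign of a retained imprint. Pooled percentages cannot tell a methylated parental copy from a mixture of cells with either state.

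Of the 40 genes, 19 were placed at maternally methylated germline DMRs and 16 of these had a window, 6 at or near paternally methylated DMRs with 6 windows, 6 at secondary marks with 6 windows, and 9 were neighbours in the same clusters with 8 windows. Peg3 and Usp29, which share a DMR, and Phlda2 had 0 cytosines listed in all libraries within the distance set. Peg13 had no strand in the tables used and is described separately by position. Peg10 and Sgce start back to back and their windows held the same 5 cytosines, so their values were identical.

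The DNA around 5 of these starts is shown because the measured cytosines lay on the start itself and read close to the middle of the scale, fully methylated or unmethylated. Each sequence runs from 250 bases before to 50 bases after the start, 5′ to 3′ on the strand of the gene, from RefSeq on GRCm38.p6, and CpG dinucleotides with a cytosine measured in all 12 libraries are in capitals. They are Plagl1 at chr10:13090582-13090881 on the plus strand, Mcts2 at chr2:152686898-152687197 on the plus strand, Igf2r at chr17:12769657-12769956 on the minus strand, Nnat at chr2:157559828-157560127 on the plus strand, and the start of Gnas that encodes the G protein subunit Gs-alpha at chr2:174329756-174330055 on the plus strand.
Plagl1: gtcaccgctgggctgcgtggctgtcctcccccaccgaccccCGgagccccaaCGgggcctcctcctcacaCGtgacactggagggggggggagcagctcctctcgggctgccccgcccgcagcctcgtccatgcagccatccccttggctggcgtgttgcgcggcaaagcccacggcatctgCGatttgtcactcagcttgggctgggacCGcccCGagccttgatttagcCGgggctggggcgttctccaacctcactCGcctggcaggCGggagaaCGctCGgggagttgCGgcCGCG
Mcts2: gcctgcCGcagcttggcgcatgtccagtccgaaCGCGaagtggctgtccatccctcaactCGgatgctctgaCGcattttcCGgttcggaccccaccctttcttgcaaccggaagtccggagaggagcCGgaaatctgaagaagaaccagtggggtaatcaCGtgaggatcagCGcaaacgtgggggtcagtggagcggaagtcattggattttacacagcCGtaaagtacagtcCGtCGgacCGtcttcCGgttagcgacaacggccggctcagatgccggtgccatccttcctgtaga
Igf2r: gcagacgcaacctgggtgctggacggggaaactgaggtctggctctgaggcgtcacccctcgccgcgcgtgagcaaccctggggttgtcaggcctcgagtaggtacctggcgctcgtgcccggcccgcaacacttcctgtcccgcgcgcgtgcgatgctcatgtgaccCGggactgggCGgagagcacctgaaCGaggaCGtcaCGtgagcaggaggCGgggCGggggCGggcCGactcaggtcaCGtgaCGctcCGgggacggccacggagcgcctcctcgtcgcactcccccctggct
Nnat: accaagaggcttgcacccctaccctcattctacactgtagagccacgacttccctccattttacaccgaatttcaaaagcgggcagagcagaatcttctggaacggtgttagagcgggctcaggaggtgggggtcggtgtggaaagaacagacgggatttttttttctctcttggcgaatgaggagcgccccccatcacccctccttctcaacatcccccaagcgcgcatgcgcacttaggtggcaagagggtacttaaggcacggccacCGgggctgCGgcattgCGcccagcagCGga
Gnas: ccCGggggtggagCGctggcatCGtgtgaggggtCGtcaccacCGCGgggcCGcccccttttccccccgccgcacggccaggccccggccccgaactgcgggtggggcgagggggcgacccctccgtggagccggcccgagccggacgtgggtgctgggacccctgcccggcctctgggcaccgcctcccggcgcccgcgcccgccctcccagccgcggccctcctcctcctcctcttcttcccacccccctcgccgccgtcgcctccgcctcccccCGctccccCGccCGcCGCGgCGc
Within these 300 bases the 14 measured cytosines of Plagl1 averaged 42.3% ± 23.2 in the control line and 43.1% ± 17.3 in the experimental line (SD, n = 6 and 5). The 14 cytosines of Mcts2 averaged 64.9% ± 10.4 and 69.5% ± 6.18, and the 13 of Igf2r 48.1% ± 23.0 and 43.0% ± 11. The 4 measured cytosines of Nnat averaged 95.2% ± 5.48 and 97.0% ± 2.92, and the 13 at the Gs-alpha start 0.203% ± 0.317 and 0.392% ± 0.379. CpG-rich DNA at imprinted starts was thus read at the middle, at the top and at the bottom of the scale in the same libraries.

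ZFP57 binds the hexamer TGCCGC when its CpG is methylated. The letters TGCCGC, read on both strands, were found in 13 of the 41 promoters listed for 27 of the member genes (31.7%) and in 11.6% of all 32851 promoters of the same length. Plagl1, Mcts2 and Nnat each held 1 copy in the sequences above, and Igf2r and the Gs-alpha start held 0. Several of the 41 promoters belong to starts of the same gene and overlap. Peg3, Usp29 and Phlda2 also have listed promoters but were left out of this count, because they had no methylation window.

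**Figure D1:**
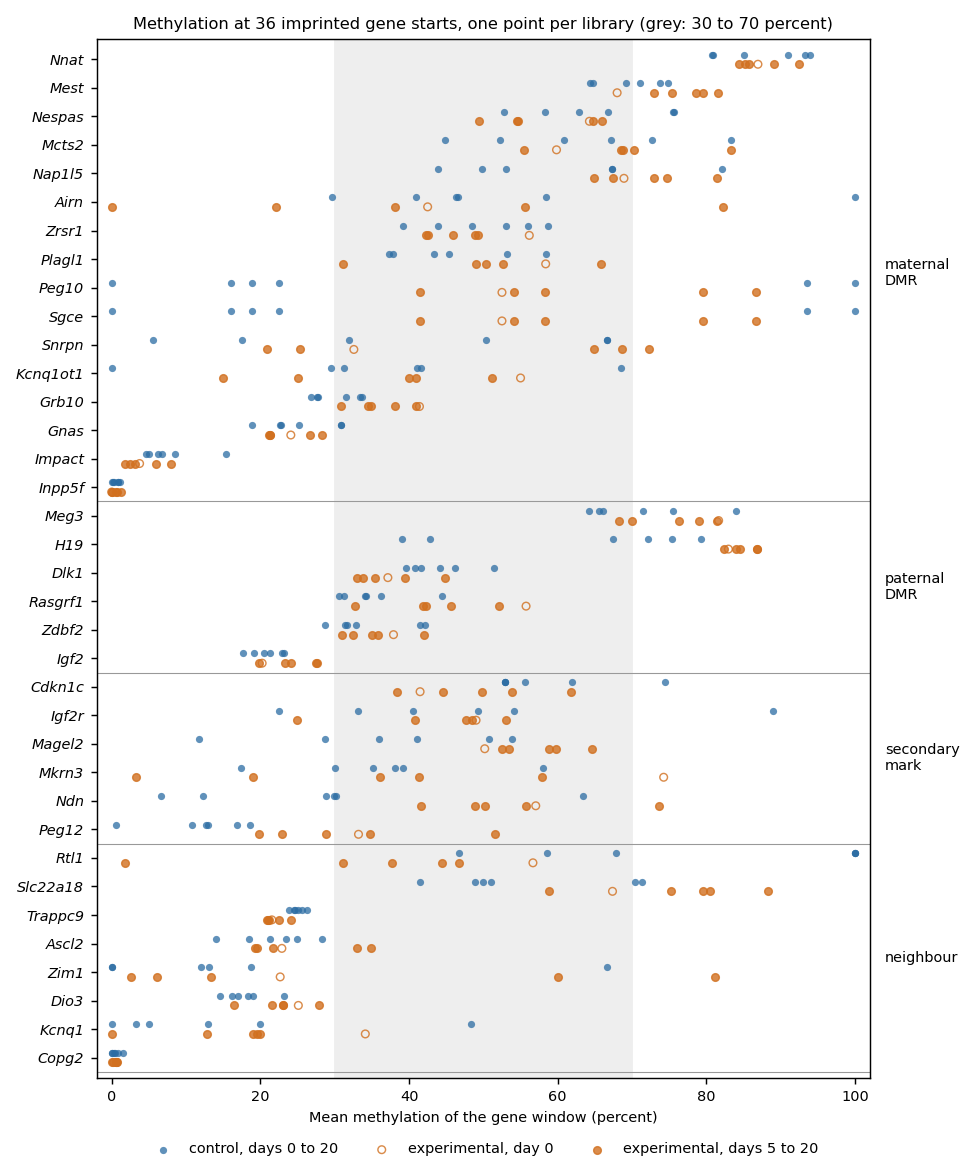
Mean methylation of the 36 imprinted gene windows in percent, with 1 point per library, filled blue for the 6 control libraries, filled orange for the 5 experimental libraries of days 5 to 20 and open for experimental day 0. Windows are grouped by class and ordered by control mean, and the grey band runs from 30 to 70 percent. Plagl1, Zrsr1, Rasgrf1 and Dlk1 lie in the band in all 12 libraries, Nnat lies above it, and Inpp5f and Copg2 lie at the far left of the plot.

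Windows at maternally methylated germline DMRs mostly had means in the middle of the scale in both lines. Of their 16 windows, 12 had a control mean and 10 an experimental mean from 30 to 70 percent. Peg10 and Sgce, which share their cytosines, count as 2 of these in each line, though 0 of their control libraries lay in the range. Grb10 counts with a control mean of 30.1%, an average of stretches at unlike levels. In what follows, values of a line are given in time order, from day 0 to day 20.

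Plagl1, a zinc finger gene that restrains growth, read 37.3, 37.8, 58.4, 53.1, 45.3 and 43.4% in the control line and 58.4, 48.9, 65.9, 31.2, 52.6 and 50.3% in the experimental line over 42 cytosines. Zrsr1, a retrotransposed splicing factor gene inside an intron of Commd1, read 58.7, 53.0, 48.4, 39.2, 56.0 and 43.9% in the control line and 56.2, 42.3, 45.9, 48.9, 42.5 and 49.2% in the experimental line over 34 cytosines. Every library of these genes stayed in the middle range, and the lines overlapped. Their line differences on the M-value scale (log2 of methylated over unmethylated, with an offset of 0.01) were 0.22 (SE 0.35) for Plagl1 and -0.23 (SE 0.21) for Zrsr1, with adjusted p-values of 0.774 and 0.570 (limma, Benjamini-Hochberg over all windows).

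Mcts2, another retrotransposed gene, lies in an intron of H13. It read 67.2, 52.3, 83.3, 44.9, 72.6 and 60.9% in the control line and 59.8, 70.3, 83.4, 68.5, 55.5 and 68.8% in the experimental line. Nap1l5, which lies in an intron of Herc3, read 82.1, 67.3, 53.1, 67.3, 49.8 and 43.9% in the control line and 68.9, 72.9, 81.4, 74.6, 67.5 and 64.9% in the experimental line. The highest control library of Nap1l5 was day 0 and the lowest day 20, and the ranges of the lines overlapped. Airn, the noncoding RNA that silences Igf2r on the paternal copy, read 46.6, 41.0, 29.7, 100, 58.5 and 46.3% in the control line and 42.5, 55.6, 82.2, 22.2, 38.1 and 0% in the experimental line over 8 cytosines that lay between 925 and 1066 bp past the start. Airn was at 100% in control day 12 and at 0% in experimental day 20, the widest spread over the 12 libraries of a window with more than 5 cytosines.

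The stretch of 5 cytosines shared by Peg10, a retrotransposon-derived gene needed in the placenta, and Sgce, which encodes epsilon-sarcoglycan, read 16.0, 18.9, 93.5, 0, 100 and 22.5% in the control line. In the experimental line it read 52.5, 41.5, 79.5, 86.7, 58.3 and 54.1%. No control library lay from 30 to 70 percent, against 4 of the 6 experimental ones, and the experimental values fell inside the control range. Kcnq1ot1, the noncoding RNA that silences its cluster on the paternal copy, had 4 cytosines and ranged from 0 to 68.6% in the control line (median 36.2%) and from 15.0 to 51.2% in the experimental line after day 0 (median 40%). Snrpn, at the imprinting centre of the Prader-Willi region, had 3 cytosines and ranged from 5.56 to 66.7% and from 20.9 to 72.2%.

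Not every window of this class was in the middle range. Nnat, which encodes neuronatin, read 90.9, 85.0, 94.0, 80.9, 93.2 and 80.7% in the control line and 86.9, 85.7, 92.4, 85.2, 84.4 and 89.1% in the experimental line over 30 cytosines. Its means were 87.5% ± 6.05 and 87.4% ± 3.37, and the lowest library was at 80.7%. Impact, an inhibitor of the GCN2 kinase, was low, with 15.4, 4.58, 6.22, 4.97, 8.56 and 6.80% in the control line and 3.75, 7.98, 5.95, 2.52, 3.18 and 1.74% in the experimental line over 10 cytosines. These lay from 1057 to 1242 bp past the 5′ end of the gene, which served as its start. Whether they lie in the DMR of Impact was not tested, so the low values do not show a lost imprint. Inpp5f, an inositol phosphatase gene whose imprinted transcript starts inside the gene, read 0, 0.833, 1.15, 0.794, 0.327 and 0.214% in the control line and 0, 0, 0.741, 1.23, 0 and 0.595% in the experimental line at the start listed here. These genes sat at the ends of the scale at day 0 in both lines, before doxycycline.

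Gnas and Nespas belong to a single complex with several starts. The RefSeq starts of Gnas include that of the NESP55 protein, the exon 1A start and the Gs-alpha start, and Nespas (Gnasas1 in RefSeq) runs in the opposite direction from a germline DMR. The Gnas window, which spans all of them, read 30.9, 22.7, 22.7, 30.9, 18.9 and 25.2% in the control line and 24.1, 21.2, 21.3, 21.3, 26.7 and 28.2% in the experimental line over 101 cytosines. Split into stretches without a gap over 500 bp, a division made after the values were seen and given with no test, the window held intermediate and unmethylated stretches. The 15 cytosines from 82 to 219 bp past the exon 1A start averaged 51.0% ± 23.0 in the control line and 50.6% ± 19.7 in the experimental line. The 54 cytosines from 248 bp before to 519 bp past the Gs-alpha start, whose sequence is shown above, averaged 0.255% ± 0.190 and 0.422% ± 0.362. The 4 cytosines from 96 to 49 bp before the NESP55 start averaged 46.2% ± 27.9 and 47.1% ± 11.9. Nespas itself read 66.8, 52.8, 62.9, 75.7, 75.5 and 58.3% in the control line and 64.3, 49.4, 64.7, 54.7, 54.5 and 65.9% in the experimental line over 35 cytosines.

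Grb10 and Mest also have several starts, and the stretches measured in their windows were in different states. No cytosine was measured right at the inner Grb10 start or at the Mest starts, so the state of these starts themselves was not read. Grb10 encodes an adaptor that dampens insulin signalling, and its window read 26.9, 31.5, 27.8, 33.4, 33.7 and 27.6% in the control line and 41.4, 34.5, 41.0, 38.1, 34.9 and 30.9% in the experimental line. Its upstream start, 9449 bp from the inner one, held 50 cytosines that averaged 4.46% ± 1.62 and 9.45% ± 4.39, and past the inner start, where the germline DMR lies, 41 cytosines averaged 61.3% ± 8.45 and 65.9% ± 7.46. From 1352 to 1205 bp before the upstream start, 4 cytosines averaged 31.7% ± 13.6 in the control line and 58.1% ± 3.61 in the experimental line, which was at 59.0% at day 0. Mest, which encodes a hydrolase-like protein, read 71.1, 74.9, 73.7, 64.3, 69.2 and 64.7% in the control line and 68.0, 79.6, 72.9, 75.4, 78.6 and 81.5% in the experimental line. Of the Mest stretches, the 6 cytosines from 1201 to 1281 bp past the inner start averaged 37.2% ± 13.4 in the control line and 63.9% ± 8.53 in the experimental line, which was at 48.8% at day 0. The 4 cytosines before the outer start averaged 86.5% ± 10.6 and 77.4% ± 10.6, and the 4 cytosines from 4811 to 4984 bp past the inner start 89.0% ± 9.02 and 92.7% ± 1.61.

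**Figure D2:**
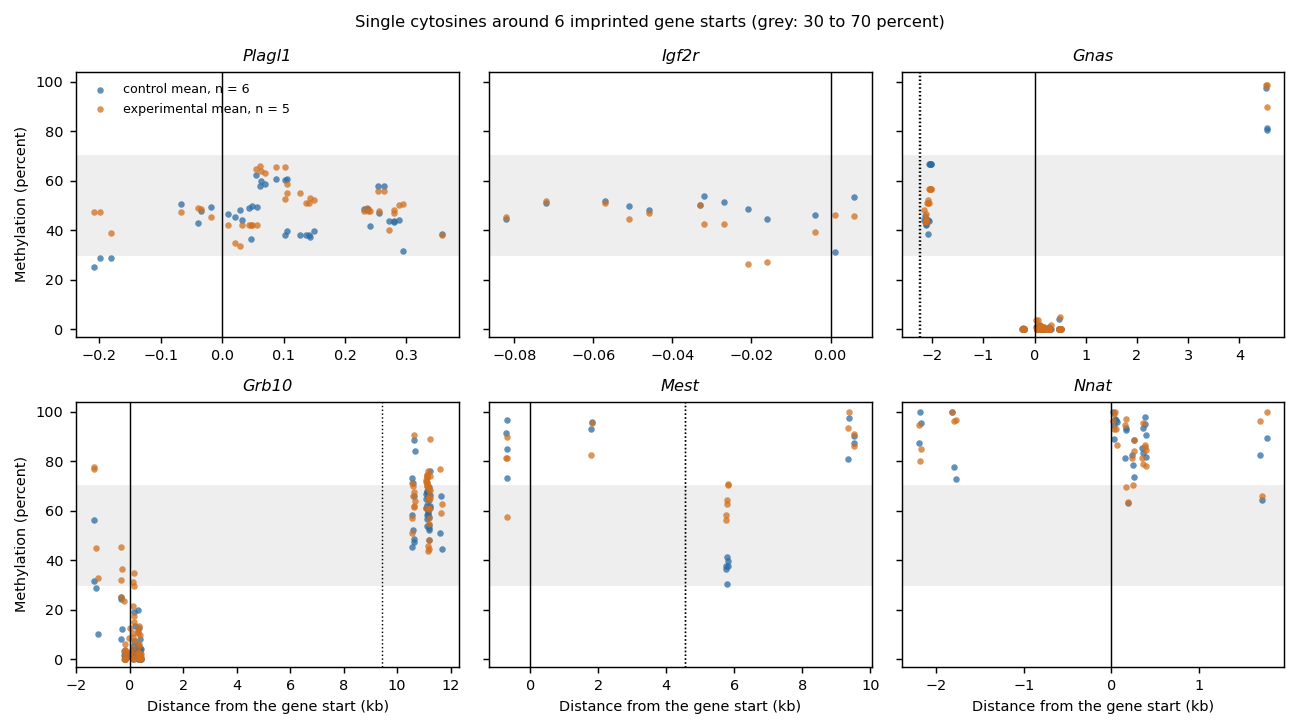
Percent methylation of single cytosines against distance from a gene start in kb for Plagl1, Igf2r, Gnas, Grb10, Mest and Nnat, as means over the 6 control libraries (blue) and the 5 experimental libraries of days 5 to 20 (orange). The solid line marks the reference start (for Gnas the Gs-alpha start), dotted lines mark other starts and the grey band runs from 30 to 70 percent. Cytosines at the exon 1A start of Gnas average 51.0% in the control line, those at the Gs-alpha start 0.255%, and those of Nnat lie mostly above the band.

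Peg13, a noncoding RNA transcribed from inside an intron of Trappc9, spans chr15:72805602-72810324 on mm10. Of the 19 cytosines within 5000 bp of the gene, 10 lay in a stretch from 72809718 to 72809881, close to the upper end. That stretch read 75.8, 43.0, 61.1, 68.2, 49.1 and 53.9% in the control line and 52.0, 57.3, 44.9, 44.8, 73.9 and 11.4% in the experimental line. The 4 cytosines beyond the lower end, from 72802532 to 72802578, averaged 70.5% ± 14.1 and 80.9% ± 5.68, and another 4 from 72805060 to 72805197 averaged 67.0% ± 14.5 and 73.2% ± 8.33. The stretch near the upper end had the lowest mean of these in both lines, and its range overlapped theirs.

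At paternally methylated loci the germline DMRs of Rasgrf1 and of the Dlk1-Meg3 pair lie away from the gene starts. Their windows read cytosines within 5000 bp of the starts, and whether any of these lie in those DMRs was not tested. A value in the middle range there is therefore not by itself the sign of a retained imprint. Of the 6 windows of this class, 4 had a control mean and 3 an experimental mean from 30 to 70 percent. Rasgrf1, a Ras activator, read 34.3, 34.1, 36.2, 31.2, 30.6 and 44.4% in the control line and 55.7, 52.1, 45.7, 42.3, 32.7 and 41.8% in the experimental line. Its 26 cytosines from 1095 to 430 bp before the start averaged 43.6% ± 6.82 and 49.4% ± 8.42 and stayed in the middle range in all 12 libraries. Dlk1, a transmembrane protein related to Notch ligands, read 39.5, 44.1, 46.2, 51.4, 40.8 and 41.6% in the control line and 37.2, 39.4, 33.0, 33.9, 35.4 and 44.9% in the experimental line. The middle value of Dlk1 was an average of unlike stretches, with 98.6% ± 3.23 and 96.9% ± 3.53 over 5 cytosines from 4318 to 4175 bp before the start, 50.3% ± 11.5 and 36.2% ± 5.76 over 11 cytosines from 2872 to 2296 bp before it, and 12.8% ± 10.2 and 11.3% ± 7.66 over 11 cytosines from 703 to 782 bp past it.

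Meg3, the noncoding RNA made from the maternal copy, read 65.5, 66.1, 64.2, 84.0, 75.5 and 71.4% in the control line and 81.6, 76.3, 81.5, 68.3, 70 and 79.0% in the experimental line. The 4 cytosines 54 to 103 bp before its first start were lower, at 6.58, 8.04, 0, 75, 25 and 6.74% in the control line and 49.1, 33.3, 75, 4.02, 36.2 and 62.5% in the experimental line. Between Dlk1 and Meg3, where the germline DMR of the cluster lies, 37 cytosines were listed in all libraries, most of them in 6 stretches of at least 4. Whether any of these stretches lies in that DMR was not tested. A stretch of 6 from chr12:109472707-109472845 averaged 73.7% ± 11.1 in the control line and 74.5% ± 3.40 in the experimental line. A stretch of 8 from chr12:109496272-109497030 averaged 70.4% ± 3.35 in the control line and 53.7% ± 5.90 in the experimental line, with 59.6% in the latter at day 0. A stretch of 4 from chr12:109525712-109525792, nearest to Meg3 apart from its promoter, averaged 78.4% ± 14.1 and 59.4% ± 10.4. The 4 cytosines from chr12:109499686-109499811 averaged 77.1% ± 14.4 and 51.4% ± 12.3, with 87.9% and 57.4% at day 0. Another 4 from chr12:109511945-109511993 were higher in the experimental line after day 0, at 57.3% ± 10.7 and 82.5% ± 16.7, but at day 0 the control line was at 55.9% and the experimental line at 38.6%.

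Zdbf2, a zinc finger gene, read 32.9, 31.7, 41.5, 28.7, 31.4 and 42.2% in the control line and 37.9, 35.0, 35.8, 42.0, 32.5 and 31.0% in the experimental line. It combined a highly methylated distal start, at 87.6% ± 7.30 and 89.3% ± 3.90 over 9 cytosines, with 33 cytosines at the main start at 20.3% ± 6.06 and 20.5% ± 4.97. Igf2, the fetal growth factor, read 17.7, 22.9, 21.2, 23.2, 20.5 and 19.1% in the control line and 20.2, 27.6, 23.3, 27.5, 19.9 and 24.1% in the experimental line over 61 cytosines. H19, the noncoding RNA next to Igf2, had only 3 cytosines, from 622 bp before to 2351 bp past its start. The imprinting control region farther upstream of H19 was therefore not read by this window. H19 read 42.8, 79.3, 67.4, 72.1, 75.4 and 39.0% in the control line and 83.0, 82.3, 86.8, 84.0, 86.8 and 84.6% in the experimental line. Every experimental library of H19 was above every control library, day 0 included.

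Windows of genes with a promoter mark acquired after fertilisation had 4 of 6 control means and 6 of 6 experimental means from 30 to 70 percent. Not all of these windows held cytosines at the promoter itself. The secondary mark of Igf2r, the receptor that clears the IGF2 protein, sits on the start sequence shown above. It read 89.0, 40.5, 49.3, 54.1, 22.5 and 33.1% in the control line and 49.0, 48.5, 53.0, 40.9, 47.7 and 25% in the experimental line. The control line at day 0 stood well above the rest. Cdkn1c, a cell cycle inhibitor, ranged from 52.9 to 74.5% in the control line (median 54.2%) and from 38.4 to 61.7% in the experimental line after day 0 (median 49.8%). Its stretches lay away from the start. The 7 cytosines from 4413 to 4281 bp before it averaged 64.8% ± 4.52 and 63.8% ± 4.15. The 10 cytosines from 1215 to 2002 bp past it averaged 51.1% ± 15.4 and 35.7% ± 12.9.

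In this class, 4 genes form the Prader-Willi cluster with Snrpn, and 3 of them had higher means in the experimental line. Ndn, which encodes necdin, a MAGE family protein, read 6.67, 30.2, 30, 12.3, 63.4 and 28.9% in the control line and 57.0, 41.6, 73.6, 55.8, 50.3 and 48.8% in the experimental line over 4 cytosines from 2939 to 3125 bp past its start. Magel2, a gene of the same family, ranged from 11.8 to 53.9% (median 38.5%) and from 52.5 to 64.6% (median 58.8%). Peg12, an inhibitor of the GSK3 kinase, ranged from 0.541 to 18.6% (median 12.8%) and from 19.8 to 51.5% (median 28.8%), with no overlap. Mkrn3, a ubiquitin ligase gene, had a range of 17.4 to 58.0% in the control line and of 3.30 to 57.9% in the experimental line. At day 0 the experimental line minus the control line was 50.4 percentage points for Ndn, 22.5 for Peg12 and 39.1 for Mkrn3, but -3.71 for Magel2.

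Of the 8 windows of neighbours without a known germline DMR at their start, 1 had a control mean and 2 an experimental mean from 30 to 70 percent. Copg2, a coatomer subunit gene, lay between 0.0556 and 1.51% in the control line and between 0 and 0.737% in the experimental line after day 0. Trappc9, a trafficking subunit gene, had window values from 23.9 to 26.3% and from 20.8 to 24.1%, and averaged 1.25% ± 0.822 and 0.882% ± 0.900 over the 24 cytosines at its start. Ascl2, a transcription factor of trophoblast, Dio3, the thyroid hormone deiodinase, and Kcnq1, a potassium channel, had control means of 21.7% ± 5.05, 18.1% ± 2.96 and 15.0% ± 17.9. Ascl2 ranged from 14.0 to 28.3% in the control line and from 19.3 to 34.9% in the experimental line after day 0. The ranges were 14.6 to 23.2% and 16.4 to 28.0% for Dio3, and 0 to 48.4% and 0 to 20% for Kcnq1. Slc22a18, a transporter gene, ranged from 41.4 to 71.4% in the control line and from 58.8 to 88.3% in the experimental line after day 0. Rtl1, a retrotransposon-derived gene of the Dlk1 cluster, read 100, 46.7, 100, 100, 58.5 and 67.9% in the control line and 56.7, 37.7, 1.85, 31.1, 44.4 and 46.7% in the experimental line over 3 cytosines. Zim1 read 66.7, 18.7, 0, 0, 12.0 and 13% in the control line and 22.7, 13.3, 60, 2.56, 6.06 and 81.2% in the experimental line, also over 3 cytosines. Over the 12 libraries Rtl1 thus ran from 1.85 to 100% and Zim1 from 0 to 81.2%.

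Over all members, with Peg10 and Sgce counted as 2 windows, the middle range was occupied more often than at genes in general. In the control line 21 of 36 windows (58.3%) had a mean from 30 to 70 percent, and in the experimental line of days 5 to 20 also 21, of which 17 were shared, against 21.2% and 21.3% of all windows. By library the number ran from 12 of 36 at control day 9 to 23 of 36 at experimental day 0, while the share of all windows ran only from 21.0 to 21.4%. Grb10, Dlk1 and Zdbf2 count in both lines as averages of unlike stretches. H19 counts in the control line, though its imprinting control region was not read. By library, member cytosines averaged 34.4 to 41.0% methylation and the cytosines of all windows 19.8 to 21.3%. Of the members' single cytosines, 24.4% ± 8.25 (SD, n = 6) were from 30 to 70 percent in the control line and 28.3% ± 5.35 (n = 5) in the experimental line, against 4.26 to 9.38% of the cytosines in all windows. Only 4 members (11.1%) stayed in the range in all 12 libraries, against 7.0% of all windows. Of 62 distinct stretches of at least 4 cytosines, 3 (4.84%) did so, at Plagl1, Zrsr1 and Rasgrf1, against 1.66% of 19616 stretches of all windows. Since the members were chosen as imprinted genes and their cytosines lie together on fragments, no test was made of these shares.

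**Figure D3:**
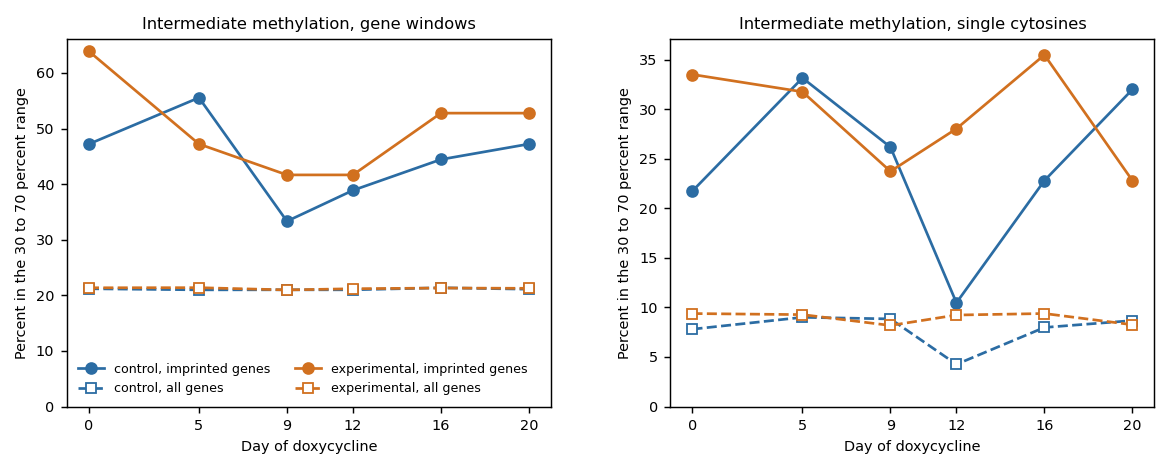
Percent of gene windows (left) and of single cytosines (right) with methylation from 30 to 70 percent against day of doxycycline, for the imprinted genes (filled circles, solid lines) and all genes (open squares, dashed lines) of the control (blue) and experimental (orange) lines. In every library the imprinted genes lie above all genes, and control day 12 is lowest among single cytosines at 10.5%.

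The share of member cytosines in the middle range moved with library size, which only the count of listed cytosines measures here, because no read counts come with the values. In the 5 libraries with the fewest cytosines (932307 to 1428330), 3 of the control and 2 of the experimental line, 10.5 to 23.7% of member cytosines were in the range and 55.0 to 78.0% were at exactly 0 or 100 percent. In the other 7 libraries (1565906 to 1716381), 26.2 to 35.5% were in the range and 29.9 to 43.8% at exactly 0 or 100 percent. The cytosines of all windows moved the same way. In the range were 4.26 to 8.25% of them in the first 5 libraries and 8.67 to 9.38% in the other 7. Control day 12 listed the fewest. The part of library size in the values of single genes was not tested.

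Set against each other, the lines did not differ at any imprinted gene window past the threshold. The line comparison called 0 of 36 members at an adjusted p under 0.05 (limma on M-values, Benjamini-Hochberg over all windows), where 4.47% of all 19536 windows were called. At an unadjusted p under 0.05, 10 members passed (27.8%), 7 higher and 3 lower in the experimental line, beside 20.2% of all windows. H19 had the lowest adjusted p among members, with a difference of 1.62 (SE 0.46) on the M-value scale and an adjusted p of 0.0753. Mest followed with 0.58 (SE 0.18, adjusted p 0.0986), Slc22a18 with 1.42 (SE 0.45, adjusted p 0.105) and Rtl1 with -5.05 (SE 1.62, adjusted p 0.113). The others were Peg12 (1.95, SE 0.69), Magel2 (1.31, SE 0.48), Ndn (1.79, SE 0.69) and Grb10 (0.36, SE 0.14) on the higher side and Dlk1 (-0.39, SE 0.17) and Trappc9 (-0.24, SE 0.09) on the lower side. The 2 members whose lines did not overlap were H19 and Peg12, beside 5.95% of all windows. The median difference of means was 3.78 percentage points over the members and 0.360 over all windows, and the median SD over days was 8.50 points in the control line at members and 2.99 at all windows.

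**Figure D4:**
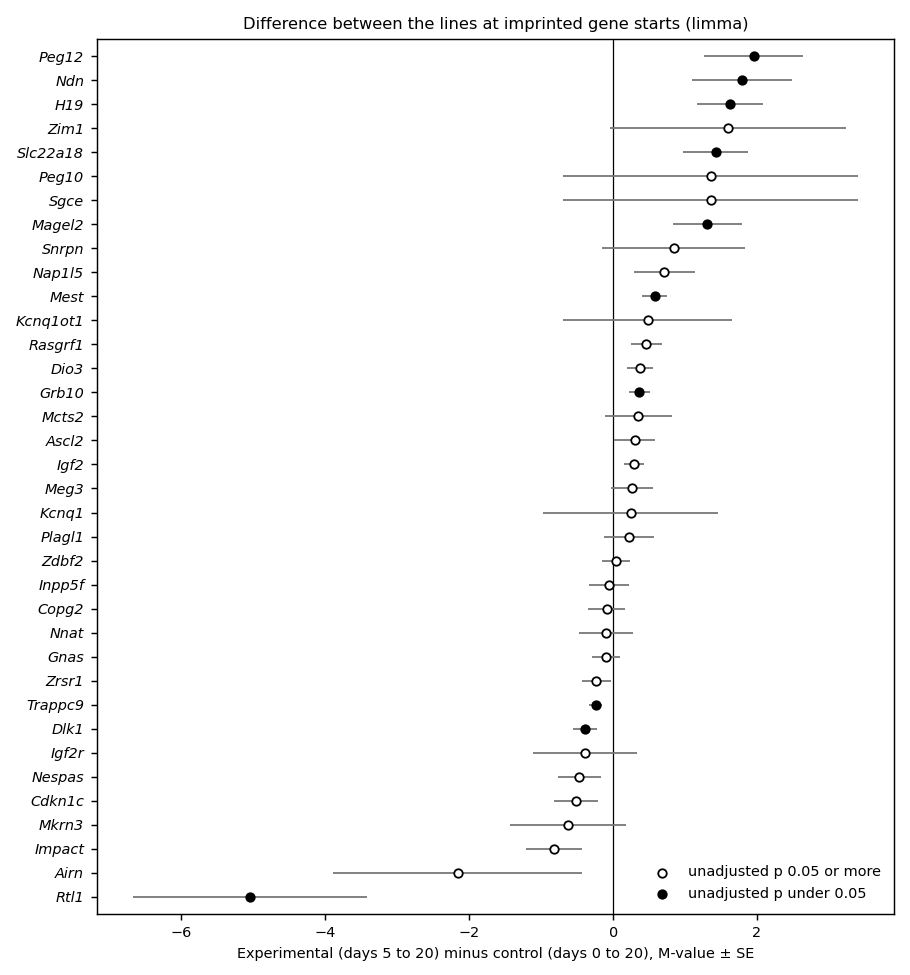
Difference between the lines for the 36 imprinted gene windows, experimental days 5 to 20 minus control days 0 to 20, on the M-value scale with its standard error from limma. Filled points have an unadjusted p under 0.05 (10 windows), and 0 windows pass after adjustment over all genes; Rtl1 is farthest below 0 at -5.05 and Peg12 farthest above at 1.95.

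Before doxycycline, the median size of the difference between the single day 0 libraries of the lines was 11.5 percentage points at members and 2.81 over all windows. Whether the difference between the lines changed with the days was tested as an interaction of line and day over all 12 libraries. It was called at 0 of 36 members and 0% of all windows (limma, adjusted p under 0.05), and the lowest adjusted p over all windows was 0.926. At an unadjusted limma p under 0.05 there were 3 members, Mest, Rasgrf1 and Nap1l5, each with an adjusted p of 1 (limma), beside 4.55% of all windows. Per day, the experimental line moved relative to the control line by 0.07 (SE 0.02) at Mest, -0.07 (SE 0.03) at Rasgrf1 and 0.09 (SE 0.04) at Nap1l5 on the M-value scale.

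Single cytosines were tested as well, since a window can hide a short stretch. Of the members' 781 cytosines whose value varied, 4 were called (0.512%), beside 0.615% of 508351 cytosines in all. The cytosine with the largest difference, at chr15:73060006 in Trappc9, 1232 bp past its start, read 100, 94.1, 88.9, 100, 100 and 100% in the control line and 33.3, 49.0, 0, 58.8, 42.9 and 21.7% in the experimental line (difference -7.24 on the M-value scale, SE 1.34, limma adjusted p = 0.0450). In Mcts2, the cytosine at chr2:152687026, 122 bp before the start and within the sequence shown above, read 38.2, 64.5, 73.8, 80.9, 57.1 and 64.4% in the control line and 100, 100, 100, 91.2, 100 and 100% in the experimental line (5.16, SE 0.75, limma adjusted p = 0.0149).

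A further Trappc9 cytosine, at chr15:73058117, was at 100% in all control libraries and at 88.9, 54.8, 75.4, 90.0, 90.2 and 88.0% in the experimental line (-4.51, SE 0.54, limma adjusted p = 0.00526). In Dio3, the cytosine at chr12:110279112, 118 bp before the start, was at 0% in all control libraries and at 14.0, 8.70, 1.96, 3.57, 5.41 and 3.85% in the experimental line (2.47, SE 0.39, limma adjusted p = 0.0207). The Dio3 cytosine was 4.70 percentage points above its control mean after day 0 and 14.0 points above control at day 0. The Mcts2 cytosine was 35.1 points above its control mean and the only one called in its window, whose mean differed by 5.77 points. At each of the 4 cytosines the lines were apart in the same direction at day 0.

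Of 46 further imprinted genes, 33 had a window. By the same limma test 1 of these (3.03%) was lower and 0 were higher in the experimental line, beside 4.47% of all windows called. At an unadjusted limma p under 0.05 there were 11 (33.3%), beside 20.2% of all windows, and the median difference of means was -0.381 percentage points. That gene was Pon2, a paraoxonase gene, at 21.9, 16.7, 18.4, 19, 25.8 and 21.9% in the control line and 13, 13, 12.0, 13.3, 15.2 and 11.6% in the experimental line (-0.75, SE 0.15, limma adjusted p = 0.0213). The difference of means was -7.60 percentage points, and at day 0 it was already -8.88. Over the window from 1500 bp before to 500 bp past the start the sign of the Pon2 difference was the opposite. Of 16 readers and keepers of imprints, among them Zfp57, Zfp445, Trim28, Dnmt1 and Uhrf1, 14 had a window and 0 were called by limma, with 0 at an unadjusted p under 0.05 as well, beside the same 4.47% and 20.2% of all windows.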

How the data were processed

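RRBS was run on 12 libraries of 2 iMEF lines. The authors mapped their reads to the mouse build mm10 with Bismark and deposited percent methylation at each CpG cytosine. Versions are not given in the sources used here. Read counts are not given with these values, so depth per site is unknown and no coverage minimum or interval was set. The filters applied with RnBeads in the study came after the deposited step. The floxed exon of Sdhc cannot be checked with these values, and the cell type was not checked, since no expression values were used.

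Beta values were these percentages over 100. Kept were 606488 autosomal cytosines, those that each of the 12 libraries listed. Both cytosines of a CpG count separately. Starts came from RefSeq promoters on GRCm38.p6 or, where a gene had none there, from its 5′ end, with the strand taken by symbol from an older annotation whose coordinates were not used. Of 47042 autosomal genes, 33545 had a start, and 15489 of 15532 genes had the same strand in both tables. Windows took cytosines within 5000 bp of any start and at least 3 of them. Limma 3.58.1 in R 4.3.3 was fitted to M-values with an offset of 0.01 over all 19536 windows, and over the 508351 cytosines with differing values, with Benjamini-Hochberg adjustment, two-sided, and a threshold of 0.05. The line comparison set 6 control libraries against 5 experimental ones (days 5 to 20), and the interaction of line and day used all 12. A count model had been planned for read counts and could not be used. The step was tested on simulated data. Software also included Python 3.11.15 with numpy 2.4.6, pandas 2.3.3 and matplotlib 3.10.9.

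The members, classes and lists were chosen with earlier results of these data known. All 40 members are accounted for, and values in every library are given for members past the threshold, for members at germline DMRs with at least 5 cytosines, and for the 3 other members with the largest day 0 difference (Ndn, Zim1 and Rtl1). Values of other members are given as ranges, apart from H19, given in full because its lines did not overlap, and Igf2r, because its sequence is shown, both chosen after their values were seen. From the other lists only genes past the threshold are named with values. Single cytosines are named where they passed the threshold and kept 1 direction on all days after day 0, at most 4. Peg13 positions, stretches and the intervals between genes were described after the values were seen. The alternatives were another offset, beta values, smaller windows, at least 10 cytosines, cytosines with 1 value left out or kept, other ranges, day as a block, another variance model, each library left out in turn and, chosen after seeing the data, the outermost start only and the 5 libraries with the fewest cytosines left out.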

Additional observations from a re-analysis of the deposited data

Results flagged for a closer look

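Among 72 sets of values, the control and the experimental libraries of the 36 windows, 2 held a library far from the others of its line by the size of its gap relative to the whole range (Dixon's criterion, which chance meets in about 1 in 20 sets). At Zim1 the control library of day 0 was at 66.7%, while the next was at 18.7%, over 3 cytosines. At Impact the control library of day 0 was at 15.4%, while the next was at 8.56%, over 10 cytosines. Both were the control library before doxycycline, which listed 1394408 cytosines, the second fewest after control day 12. The part of library size in these values was not tested.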

How the results depend on the processing

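Depth is unknown, which limits every value here, and each line is a single line, so line and genotype cannot be told apart. The 0 called members held under all alternatives but limma on beta values, where 1 member, Trappc9, passed (adjusted p 0.0367, limma, over a range of 0.0367 to 0.666 in its alternatives), and the interaction stayed at 0 called windows throughout. Over all windows, 440 were called with windows of 1 kb and 365 in the promoter from 1500 bp upstream to 500 bp downstream. Without the 5 libraries with the fewest cytosines, 8 were called. At an unadjusted p under 0.05 by limma, 7 members (19.4%) then passed, beside 18.1% of all windows. Leaving out each library in turn gave 522 to 910 windows, lowest without experimental day 12, with 576 without experimental day 5. Of single cytosines, 5275 were called with an offset of 0.05, 5954 on beta values and 5488 without those 5 libraries, including 14 member cytosines, 12 of which then held 1 value within a line. With each library left out, 2240 to 3741 were called, 3 to 5 of them at members. Of 16 alternatives, the Trappc9 cytosine at 73060006 was called in 4, the one at 73058117 in 13 (not on beta values), the Dio3 cytosine in 12 (neither with an offset of 0.05 nor on beta values) and the Mcts2 cytosine in 14. Pon2 reversed to 0.58 in the promoter window. Whether days shared by the lines pair libraries is not known. Deviations from the line means correlated across windows at -0.0202 to 0.00540 over days 5 to 20. With day as a replicate block, 66 windows, 0 single cytosines and 0 member cytosines were called. Member windows in the middle range numbered 9 and 9 (control, experimental) for a range from 40 to 60 percent, 13 in the control line for windows of 1 kb, and 13 and 12 with at least 10 cytosines. With windows of 1 kb or at least 10 cytosines, fewer members had a window, Kcnq1ot1 with its 4 cytosines being lost in both. Lower counts in these settings therefore do not show a lower share of windows in the range. The share of member cytosines was 35.4% in the experimental line for a range from 25 to 75 percent, and 13.4% and 16.0% from 40 to 60 percent. Stretches in the range in all libraries numbered 1 of 69 with gaps of 200 bp (1.45%), beside 1.12% of all stretches. Without control day 12 they numbered 5 of 62 (8.06%, beside 2.06%), and in the main setting 3 (4.84%, beside 1.66%).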
